A study of Nematostella vectensis with 4 samples.

Results

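The genes described here encode the proteins of the cytosolic ribosome in the starlet sea anemone Nematostella vectensis, a cnidarian. Members were the gene models whose deposited name starts with the entry name of a ribosomal protein of the large subunit (RL and a number), the small subunit (RS and a number), the stalk (RLA0 to RLA2) or RSSA. The rule matched 113 of 25734 gene models and used no measured value. Of these, 66 were named after large-subunit proteins and 35 after small-subunit proteins of eukaryotes. The other 12 were named after ribosomal proteins of bacteria, such as RS11_BARBK (NVE12229) and RL27_XANP2 (NVE7607), and their names go against the label cytosolic.

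Single-cell RNA was counted in sub-adult polyps aged 5 months, with 1 library each from the tentacle, the mesentery, the pharynx and the body wall; mesenteries are the inner folds that divide the gut. No genetic or chemical treatment is given for any of the libraries. All 4 tissues were taken apart with the same trypsin-like enzyme (TrypLE Select) and run on the 10x Genomics Chromium with version 2 reagents. No source used here names the number of polyps behind a library. Therefore a tissue and its library cannot be told apart, no test between tissues was possible, and every interval below (95%) covers counting error only.

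Barcodes with at least 300 UMIs (unique molecular identifiers, each marking 1 captured RNA molecule) numbered 1299 in tentacle, 1357 in mesentery, 2804 in pharynx and 1652 in body wall, 7112 in all. They held 1563722 to 2755343 UMIs per library, with medians of 542 to 766 UMIs per barcode. Of the kept barcodes, 22 sequences occurred in more than 1 library, and doublets were not called. Barcodes whose clusters were rich in Ncol3 (NVE9976), which encodes a minicollagen (stinging capsules have walls of such collagens), numbered 312 in tentacle, 23 in mesentery, 118 in pharynx and 18 in body wall.

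A ribosome has a small subunit, which holds the mRNA and reads its codons, and a large subunit, which joins the amino acids and passes the new chain through its exit tunnel. Nearly all of its proteins are built in as a single copy, and a stalk of acidic proteins on the large subunit recruits the elongation factors. Because so many ribosomes are needed, the mRNAs of these proteins are among the most abundant of animal cells, in which most ribosomal proteins are encoded by a single active gene.

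The members fell into an abundant set and a scarce one. In the kept barcodes, 83 members (49 large-subunit, 34 small-subunit) had between 3858 and 57432 UMIs each over the 4 tissues, and the next member below had 407. These 83 held 99.9% of all ribosomal protein UMIs, and 70 of the 100 genes with the most UMIs were members. Of the remaining members, 14 had at least 50 but under 1000 UMIs, 11 had 1 to 49 and 5 had none. The models named after bacterial proteins were all scarce, with 0 to 256 UMIs each and 0.0111% to 0.0163% of a tissue's UMIs together.

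Of 80 families of the animal cytosolic ribosome, 76 had a member and 75 an abundant one. The families GBLP, RL29, RL41 and RS28 had none under the rule, and RL36A had only RL44_OCHTR (NVE2298), with 86 UMIs. Just outside the name rule stood RL44Q_CANMA (NVE2295), which carries the other name of the RL36A family and had 27036 UMIs, and GBLP_RAT (NVE25966), named after a small-subunit scaffold protein, with 26448 UMIs. Their counts lay within the range of the abundant members.

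The 10 members with the most UMIs came from both subunits. RL8_XENTR (NVE23701), named after a protein next to the catalytic centre of the large subunit, had the most, with 57432 UMIs and rank 7 of all genes. It was followed by RS10_HUMAN (NVE2161), a protein of the small subunit, with 54580, RS8_SPOFR (NVE19312) with 49308 and RS27A_CHICK (NVE22476) with 47623 UMIs. RS27A is made as a fusion with ubiquitin, from which it is cut. RL9_HUMAN (NVE21967), RL27A_RAT (NVE2088), RS18_DANRE (NVE4890), RL32_RAT (NVE14265), RS15_ORYSJ (NVE11807) and RS12_PIG (NVE6784) followed, with 47294 down to 44686 UMIs. The middle 50% of the abundant members lay between 23180.5 and 40778.5 UMIs, 1.76-fold apart. These are molecules counted at the 3′ end and are not scaled by length; how completely each gene model covers its 3′ end was not tested.

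Ribosomal protein genes gave a large part of the RNA molecules counted in every tissue, with the lowest share in the tentacle and the highest in the mesentery. The members took 29.4% of all UMIs in tentacle (29.3 to 29.4), 34.6% in mesentery (34.6 to 34.7), 31.7% in pharynx (31.7 to 31.8) and 34.0% in body wall (34.0 to 34.1). The mesentery stood 1.18-fold above the tentacle (1.175 to 1.184) and 1.02-fold above the body wall (1.01 to 1.02). The order of the mesentery and the body wall turned when at least 1000 UMIs per barcode were asked for, with 34.5% and 34.8%, and the tentacle stayed lowest. Each value is a share of a whole, so a library with more of other transcripts has a lower share at the same number of ribosomal protein molecules. With the 100 most abundant other genes left out of the whole, the shares were 40.6% in tentacle, 48.1% in mesentery, 45.1% in pharynx and 46.3% in body wall.

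Both subunits contributed to the tentacle's lower share. Large-subunit members took 17.0%, 19.4%, 17.95% and 19.3% of the UMIs of the tentacle, mesentery, pharynx and body wall, and small-subunit members took 12.3%, 15.2%, 13.8% and 14.7%. The large subunit's part of both was 57.9% in the tentacle (57.8 to 58.1) and 56.1% to 56.7% in the other 3 tissues. The stalk members RLA0_RANSY (NVE10151), RLA1_RAT (NVE25369) and RLA2_RAT (NVE2942) made up 4.99% of the ribosomal protein UMIs in the tentacle and 4.08% to 4.18% elsewhere. RSSA_NEMVE (NVE379), a small-subunit protein also known in mammals as a laminin receptor, stood at 3052 UMIs per 1000000 (CPM) in tentacle, 4098 in mesentery, 3487 in pharynx and 4543 in body wall.

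Barcodes of 1 tissue differed far more than the tissues did. The median share per barcode was 30.3% in tentacle, 35.2% in mesentery, 31.9% in pharynx and 33.0% in body wall. In the tentacle, 90% of the barcodes lay between 9.15% and 53.4%. The same range was 15.7% to 53.0% in mesentery, 17.8% to 48.8% in pharynx and 18.7% to 47.4% in body wall. A share under 10% was found in 81 tentacle barcodes, 24 mesentery, 21 pharynx and 9 body wall barcodes. These were 6.24% of the tentacle's barcodes and 0.545% to 1.77% of the others'. A share over 50% was found in 116 tentacle, 116 mesentery, 113 pharynx and 44 body wall barcodes.

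**Figure D1:**
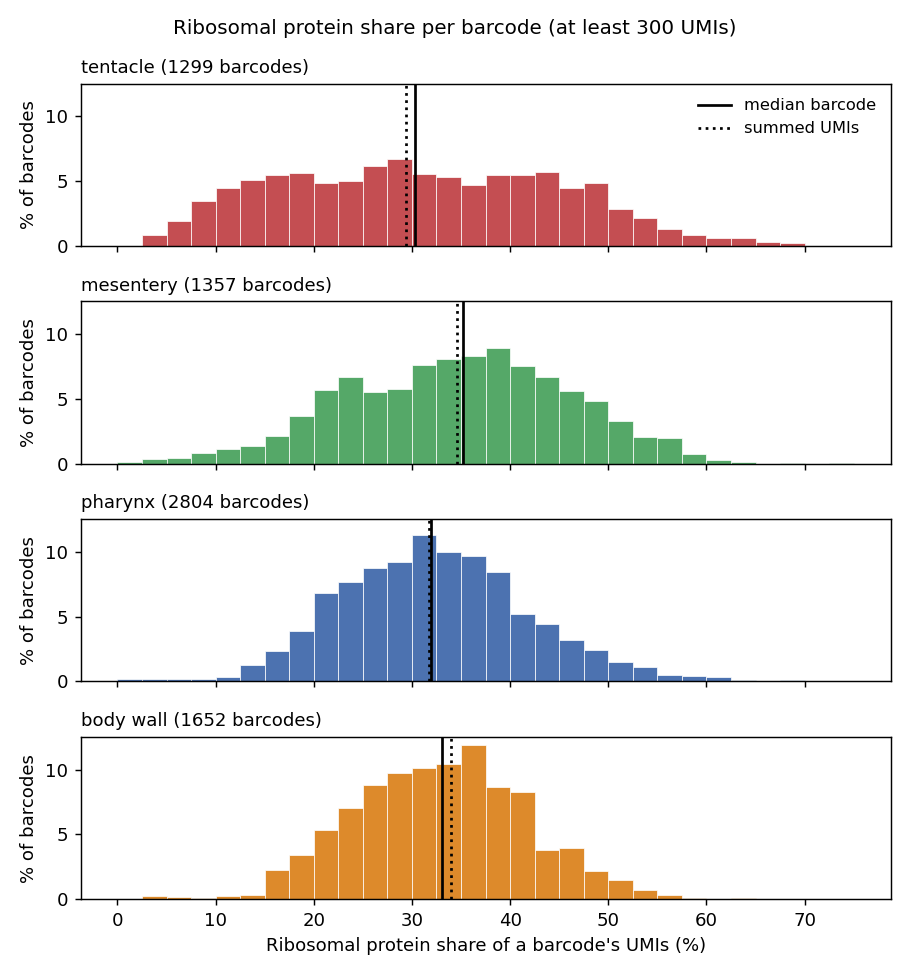
Histograms of the ribosomal protein share of UMIs per barcode (x axis, %) in barcodes with at least 300 UMIs, as % of the barcodes of each library (y axis), with the median barcode (solid line) and the share of the summed UMIs (dotted line). The tentacle is the widest, with 90% of its barcodes between 9.15% and 53.4%, and the body wall is the narrowest, between 18.7% and 47.4%.

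Counting error was a small part of this spread. After each barcode was thinned to 300 UMIs, the SD over barcodes was 14.3 percentage points in tentacle, 11.6 in mesentery, 9.79 in pharynx and 9.06 in body wall. Drawing 300 UMIs at the mean share would alone give 2.67 to 2.75. The ratio of the observed SD to that of drawing was 5.35 in tentacle, 4.204 in mesentery, 3.63 in pharynx and 3.34 in body wall.

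In deep barcodes the subunits rose and fell together. Among barcodes with at least 2000 UMIs, the share of large-subunit and that of small-subunit members had a Spearman rho of 0.99 over 256 tentacle barcodes, 0.96 over 151 in mesentery, 0.94 over 236 in pharynx and 0.88 over 320 in body wall. Both shares have the same denominator and the barcodes of a library share its free RNA, so these are descriptions. The large subunit's part of both lay between 53.9% and 61.6% in 90% of the deep tentacle barcodes, while their ribosomal protein share ran from 5.60% to 49.8%. A deep barcode held, at the median, 82 of the 83 abundant members in the tentacle and all 83 in the other tissues.

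The share had no common relation to depth across the tissues. Spearman's rho between a barcode's UMIs and its share was −0.09 in tentacle, −0.04 in mesentery, 0.07 in pharynx and 0.27 in body wall. In the body wall the share of the summed UMIs was 30.6% in barcodes of 300 to under 500 UMIs and 34.8% from 1000 UMIs up. In the tentacle it was 32.7% at 300 to under 500 UMIs and 28.8% from 2000 UMIs up. The tentacle's median share per barcode went the other way, at 30.6% and 32.3% in these groups. From 2000 UMIs up the pharynx had 30.5% of the summed UMIs but a median per barcode of 35.0%. Among barcodes with at least 1000 UMIs rho was 0.00 in tentacle, 0.11 in mesentery, 0.00 in pharynx and 0.04 in body wall. The body wall's relation thus rested mainly on its shallower barcodes.

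Barcodes below 300 UMIs, which are used below only where named, held a similar share. It was 31.7% in tentacle, 35.6% in mesentery, 33.7% in pharynx and 34.0% in body wall. Below 200 UMIs the body wall stood at 35.7%, against 29.8% in its barcodes of 200 to under 300 UMIs. Free RNA in the droplets gives UMIs to every barcode, and its part in the shares was not tested.

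**Figure D2:**
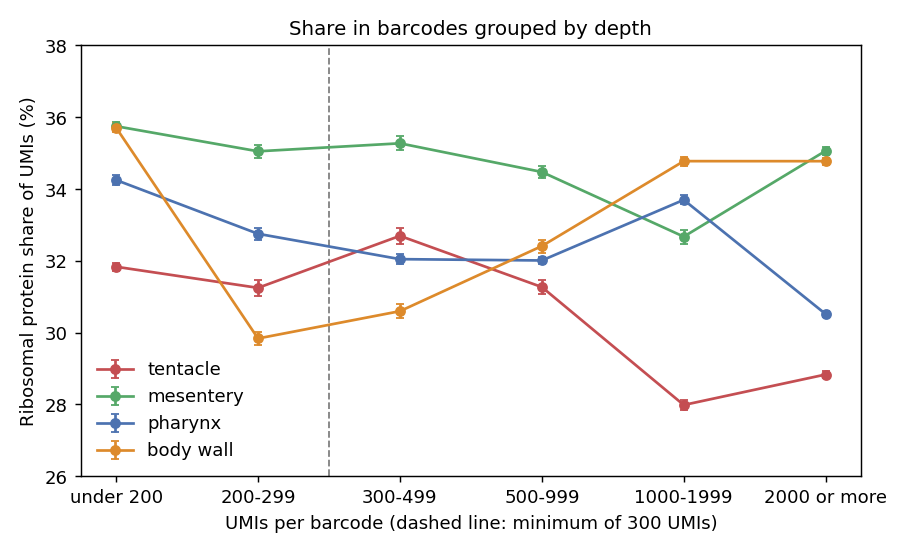
Ribosomal protein share of the summed UMIs (y axis, %, from 26 to 38) in barcodes grouped by their UMIs (x axis); bars are exact 95% counting intervals, lines join the groups of 1 library, and the dashed line marks the minimum of 300 UMIs. The body wall goes from 30.6% at 300 to under 500 UMIs to 34.8% from 1000 UMIs up, and the tentacle from 32.7% at 300 to under 500 UMIs to 28.8% from 2000 UMIs up. Medians per barcode are not shown, and the tentacle's went from 30.6% to 32.3% between these groups.

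Part of the spread lay between clusters of cells. The barcodes were clustered with no ribosomal protein gene among the variable genes, which gave 27 clusters, 25 of them with at least 50 barcodes. Differences between clusters made up 43.0% of the variance of the share over tentacle barcodes, 29.7% in mesentery, 18.3% in pharynx and 32.0% in body wall. Among clusters of at least 50 barcodes the share of the summed UMIs ran from 17.8% (cluster 13) to 43.9% (cluster 16). Counts per barcode were scaled to the barcode's total before clustering, so the share is not wholly independent of the clusters.

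Among the clusters low in ribosomal protein transcripts, cluster 13 was led among named genes by NUPR1_RAT (NVE1663) and BIR7B_XENLA (NVE7082) and stood at 11.9% in the tentacle and 24.5% in the body wall. It also held 24 of the 81 tentacle barcodes under 10%, with 65 of the tentacle's 1299 barcodes. Cluster 25, a group of 39 barcodes led by genes named after phospholipase A2 (PA2_URTCR, NVE18268 and NVE10958), stood at 7.19% over its 30 mesentery barcodes. It held 13 of the 24 mesentery barcodes under 10%.

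The muscle-like clusters stood apart from each other. Cluster 10, with MYL9_MOUSE (NVE20160), TPM4_MOUSE (NVE1725) and MLC2_DROME (NVE3912) among its leading genes, had 16.5% in tentacle, 29.5% in mesentery and 28.9% in pharynx. Cluster 6, with MP20_DROME (NVE7520), MLC2_DROME (NVE12983) and MYL9_BOVIN (NVE14934), had 36.0% in tentacle, 41.5% in pharynx and 40.5% in body wall. In both clusters the tentacle was the lowest. In cluster 8, led among named genes by TBA1_PARLI (NVE24203), a tubulin, the tentacle stood at 20.01% and the other 3 tissues at 24.9% to 26.7%. In cluster 5, led by CSL3_ONCKE (NVE7724), the tentacle (39.3%) and the pharynx (39.5%) were close together. In 10 clusters the tentacle and another tissue had at least 20 barcodes each. By summed UMIs the tentacle was the lowest in 9 of them, in 8 with counting intervals apart. These intervals leave out the spread among barcodes. The exception was cluster 21, with 31.0% in tentacle and 29.1% in pharynx. By the median share per barcode the tentacle was lower in cluster 21, at 27.5% against 29.4%. In cluster 18 the tentacle's median was 26.9% over 20 barcodes, above the pharynx's 19.8% over 23.

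The cluster with the most barcodes of high share differed between tissues. In each tissue it held a larger part of these barcodes than of all barcodes. Of the 116 tentacle barcodes over 50%, 72 were in cluster 5, which held 438 of the tentacle's 1299 barcodes. Of the 116 in the mesentery 89 were in cluster 1, which held 618 of 1357 barcodes and stood at 40.2% there. In the pharynx 46 of 113 were in cluster 0, which held 950 of 2804 barcodes. In the body wall 25 of 44 were in cluster 6, which held 272 of 1652. Of the clusters rich in Ncol3, cluster 16 stood at 43.8% in the tentacle and cluster 19 at 23.0%. Cluster 14 stood at 20.5% in the tentacle and 37.5% in the pharynx. Cluster 24 stood at 22.8% over its 70 pharynx barcodes, with a median per barcode of 36.3%. Over all its Ncol3-rich clusters the tentacle had 28.4%, against 30.2% in its other clusters. The other 3 tissues had 18.8% to 25.9% in these clusters, against 32.6% to 35.1% in their others. These are shares of summed UMIs, in which deep barcodes weigh more. The median share per barcode went the other way in 3 tissues, with 35.7% in Ncol3-rich and 29.0% in other clusters of the tentacle, 38.1% and 35.2% in mesentery, and 40.03% and 31.8% in pharynx. In the body wall it was also lower in the Ncol3-rich clusters, at 28.0% against 33.1%.

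**Figure D3:**
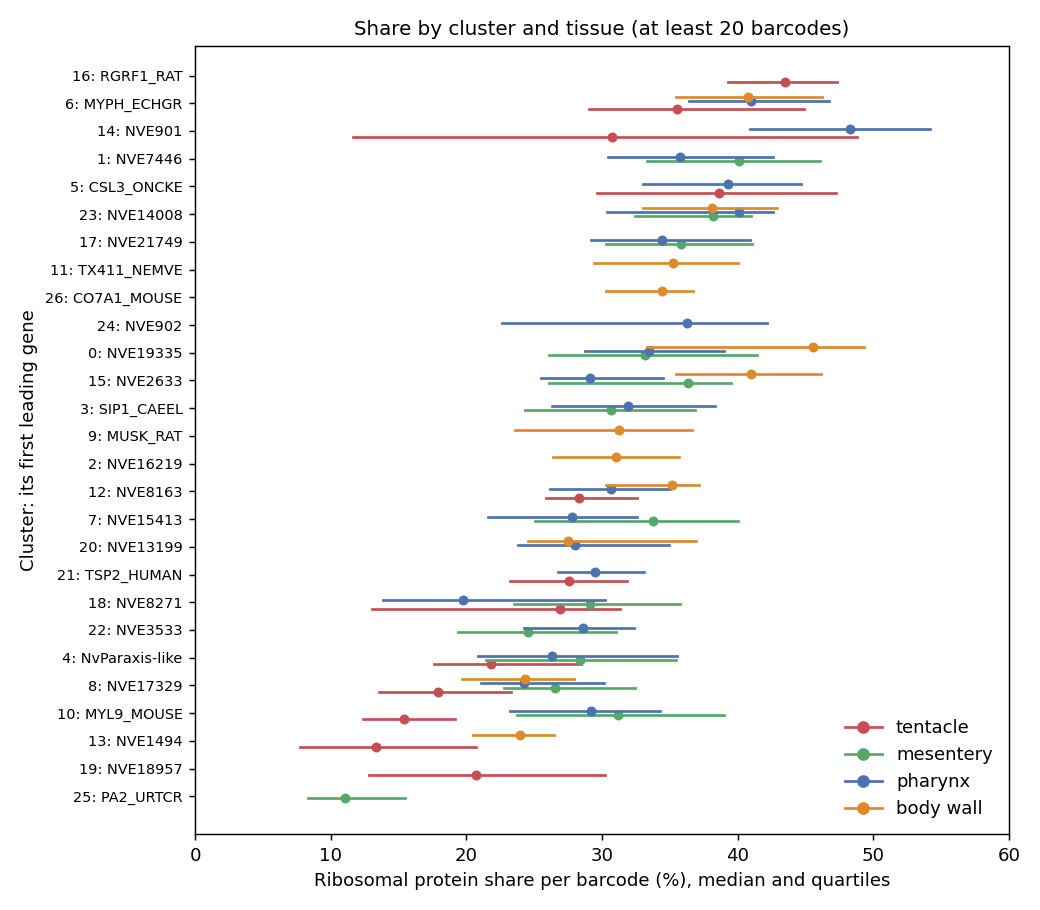
Ribosomal protein share per barcode (x axis, %) by cluster and tissue, for cluster and tissue pairs of at least 20 barcodes; points are medians, bars span the quartiles, and each cluster is marked by its number and first leading gene. Tentacle medians run from 13.3% in cluster 13 to 43.5% in cluster 16.

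Between tissues, ribosomal protein genes varied less than most genes did. Of the 97 members with at least 50 UMIs, 3 were at least 2-fold apart between their highest and lowest tissue (10 CPM added to each), 3.09%, where 44.1% of all 8222 genes with at least 50 UMIs were. The median of this fold was 1.28 over these members and 1.84 over all those genes. Among genes with at least 1000 UMIs it was 1 of 83 members (1.2%) and 56.8% of 824 genes, with median folds of 1.25 and 2.29. Against the mean of the other 3 tissues, 1 member, RL40_SHEEP (NVE16955), was at least 2-fold lower in the tentacle, where 11.6% of all genes were. None of the 97 was at least 2-fold higher there, where 9.99% of all genes were. None was 2-fold higher or lower in the mesentery (4.04% and 10.7% of all genes), the pharynx (6.09% and 8.21%) or the body wall (6.92% and 13.6%).

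Single abundant members were mostly highest in the body wall or the mesentery and lowest in the tentacle. Of the 83 abundant members, 41 were highest in body wall, 33 in mesentery, 6 in tentacle and 3 in pharynx. The tentacle was the lowest tissue for 57 of them, the pharynx for 14, the body wall for 11 and the mesentery for 1. The median log2 ratio to the mean of the other 3 tissues was −0.18 in tentacle, 0.11 in mesentery, −0.06 in pharynx and 0.11 in body wall. Scaled to the ribosomal protein UMIs of the tissue instead, it was 0.01, −0.02, −0.02 and 0.02. On that scale 26 members were highest and 20 lowest in the tentacle.

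The flattest of the abundant members was RS12_PIG (NVE6784), a small-subunit protein, at 1.06-fold between its highest and lowest tissue. RL32_RAT (NVE14265) followed at 1.10-fold, as did the stalk base RLA0_RANSY (NVE10151) at 1.10-fold, with 5140, 5035, 4671 and 5099 CPM in the tentacle, mesentery, pharynx and body wall. RLA0_RANSY, RLA2_RAT (NVE2942), RL5_BOMMO (NVE4703), RL26_LITLI (NVE23244) and both RS9_DROME models (NVE7184 and NVE7186) were the 6 members highest in the tentacle.

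**Figure D4:**
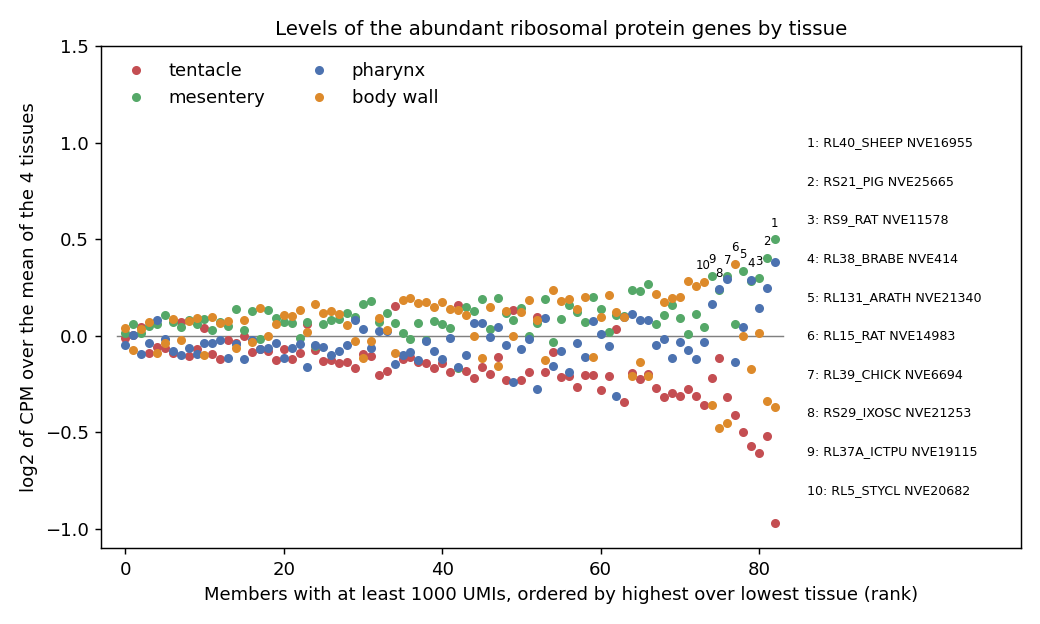
Level of the 83 abundant members in each tissue, as log2 of CPM over the mean of the 4 tissues (y axis), ordered by the ratio of the highest to the lowest tissue (x axis); each point is 1 library. The numbered members are the 10 with a ratio of at least 1.5, of which RL40_SHEEP (NVE16955) is the widest at 2.77-fold.

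Among the abundant members, 10 had a ratio of at least 1.5 between the highest and lowest tissue; they were singled out after their values were seen. The widest was RL40_SHEEP (NVE16955), a large-subunit protein made as a fusion with ubiquitin. It stood at 634 CPM in tentacle, 1753 in mesentery, 1617 in pharynx and 960 in body wall, 2.77-fold from lowest to highest (2.58 to 2.97). Reads of other ubiquitin genes could be counted in such a model, which was not tested. RS21_PIG (NVE25665), a small-subunit protein, stood at 1987, 3768, 3382 and 2256 CPM in the same order, and RL38_BRABE (NVE414), a small protein of the large subunit, at 1538, 2782, 2791 and 2027 CPM. For these 3 members the mesentery and pharynx were high and the tentacle and body wall low.

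The same order held for 3 further members, with the body wall as the lowest tissue. RL39_CHICK (NVE6694), a very small protein of the exit tunnel, stood at 1961, 3020, 2998 and 1788 CPM. RS29_IXOSC (NVE21253), a small zinc-binding protein of the small subunit, stood at 2870, 3660, 3670 and 2229 CPM. RL37A_ICTPU (NVE19115), a zinc-binding protein of the large subunit, stood at 2193, 3171, 2865 and 1994 CPM.

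The other 4 were all lowest in the tentacle, but they differed in their highest tissue. RL15_RAT (NVE14983) and RL5_STYCL (NVE20682), both of the large subunit, did not share that order. They were highest in the body wall, at 3096 and 3422 CPM, and stood at 1799 and 2195 CPM in the tentacle. RS9_RAT (NVE11578) and RL131_ARATH (NVE21340) were highest in the mesentery, at 2724 and 789 CPM, and lowest in the tentacle, at 1453 and 442 CPM.

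Together the 10 members took 5.81% of the ribosomal protein UMIs in tentacle and 6.06% in body wall, against 7.81% in mesentery and 7.98% in pharynx. Barcodes below 300 UMIs gave 6.30%, 6.06%, 8.03% and 8.05% in that order. The tentacle and body wall were again lower than the mesentery and pharynx. The tentacle's value was higher than in its kept barcodes, with counting intervals apart, and stood above the body wall's. Libraries also differed within a cluster. In cluster 5 the 10 members took 6.01% in the tentacle against 7.70% in the pharynx, and in cluster 10 they took 6.20% against 7.84%. In cluster 8 they took 6.24% in tentacle, 5.70% in body wall and 7.97% in pharynx. Since the 10 were singled out for their difference between these libraries, the values within clusters are a description. A property of the library and one of the tissue cannot be told apart here.

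Of the scarce members, RL36_RAT (NVE22343) and RL3_DROME (NVE13299) were the other 2 members 2-fold apart with 10 CPM added. RL36_RAT had 48, 116, 179 and 64 UMIs in the tentacle, mesentery, pharynx and body wall, and RL3_DROME had 26, 60, 104 and 49. The RL36 and RL3 families each have an abundant model beside them, RL36_IXOSC (NVE9318) and RL3_MOUSE (NVE13301), which took 98.9% and 99.1% of their family's UMIs. Among the members named after bacterial proteins, RS12_ACIF5 (NVE15262) had 39 UMIs in the tentacle and 14 to 24 elsewhere, the largest log2 ratio to the other tissues in the tentacle (0.71). RS11_BARBK (NVE12229) had the largest in the body wall (0.57), with 89 UMIs there and 39 to 81 elsewhere. RL44_OCHTR (NVE2298) had 45 of its 86 UMIs in the pharynx. RL34_STRTD (NVE209) had 21, 19, 11 and 9 UMIs and RL40_EIMBO (NVE12449) 4, 17, 7 and 24, too few to order the tissues closely. The scarce models RL40_DROME (NVE18617) and RL15_QUESU (NVE23265) had 12, 26, 26 and 10 and 3, 13, 32 and 17 UMIs.

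Most families were served by 1 model. Of 86 families, counting those named after bacteria, 15 had more than 1 model, and in 10 of these at least 2 models had 50 UMIs. In 7 of the 10 the second model took at least 10% of the family's UMIs: RL13, RL26, RL40, RL5, RL6, RS23 and RS9. Where models are near-identical or overlap, the authors' counting could have split or lost reads between them, so these divisions are uncertain. The identifiers of RL6_MOUSE (NVE23054) and RL6_DICDI (NVE23056), and of the RS9_DROME models NVE7184 and NVE7186, are close to consecutive; whether they are neighbouring genes or pieces of 1 gene was not analysed here.

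In RL13, RL6 and RS9 the same model led in every tissue. RL13_DANRE (NVE22308) took 91.3%, 85.8%, 86.9% and 88.8% of its family's UMIs in the tentacle, mesentery, pharynx and body wall. RL6_MOUSE (NVE23054) took 86.9%, 87.4%, 89.1% and 87.6%. In RL26, RL40, RL5 and RS23 the leading model changed with the tissue.

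For some families the division followed the library. RS9_RAT (NVE11578), named after a small-subunit protein at the mRNA entry, took 35.1% of the RS9 family's UMIs in tentacle (34.0 to 36.2), 51.1% in mesentery (50.01 to 52.2), 54.1% in pharynx (53.3 to 55.01) and 46.8% in body wall (45.8 to 47.8). Across the clusters with at least 100 family UMIs its share ran from 32.0% to 39.1% in tentacle, 49.5% to 56.9% in mesentery, 51.0% to 56.4% in pharynx and 44.5% to 49.8% in body wall. No tentacle cluster reached the lowest cluster of another tissue. In barcodes below 300 UMIs it was 34.8%, 49.9%, 53.7% and 45.7% in the same order.

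RL40_DROME (NVE18622) took 65.3%, 48.4%, 47.4% and 55.2% of the RL40 family's UMIs in the tentacle, mesentery, pharynx and body wall, and in barcodes below 300 UMIs 64.7%, 49.7%, 46.9% and 54.6%. Most of the rest was RL40_SHEEP (NVE16955), with 34.2%, 50.8%, 52.2% and 44.0%. RL26_LITLI (NVE16291), 1 of a pair of models of a protein near the tunnel exit, took 44.7%, 53.3%, 54.7% and 50.5% of the RL26 family's UMIs. Its value below 300 UMIs was 45.3%, 53.1%, 54.6% and 49.2%. In all 3 families the mesentery and pharynx were close to each other, the tentacle was farthest from them and the body wall lay between.

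For RL5 and RS23 the division differed between Ncol3-rich and other clusters, a split made after the values were seen. Clusters 14, 16, 19 and 24 had 13896 to 28812 CPM of Ncol3 (NVE9976), and every other cluster had at most 879. RL5 is a large-subunit protein that carries the 5S ribosomal RNA. RL5_STYCL (NVE20682) took 35.9% of the RL5 UMIs of Ncol3-rich clusters in tentacle (34.5 to 37.4), 37.8% in mesentery (33.0 to 42.8), 42.1% in pharynx (39.5 to 44.8) and 37.3% in body wall (29.98 to 45.2). In the other clusters it took 56.0% (54.5 to 57.4), 59.7% (58.6 to 60.8), 59.0% (58.1 to 59.9) and 57.8% (56.9 to 58.7). The intervals of the summed cluster sets did not overlap in any of the 4 libraries. By the values of single clusters the ranges did not overlap in the tentacle, at 31.6% to 39.6% and 44.9% to 59.2%. In the pharynx they came close, at 40.4% to 48.5% over 2 Ncol3-rich clusters and 50.8% to 64.5% over 16 others. The counting intervals of single clusters were not compared. In the mesentery and body wall no Ncol3-rich cluster had the 20 barcodes needed for a value. Across libraries the sets overlapped, since other clusters of the mesentery ran from 44.7% to 69.9%. The rest of the family's UMIs were of RL5_BOMMO (NVE4703), since RL5_SUBDO (NVE3302) had 0 UMIs.

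RS23 is a small-subunit protein of the decoding centre. RS23_RAT (NVE8043) took 62.3% of the RS23 UMIs of Ncol3-rich clusters in tentacle (60.7 to 63.8), 60.3% in mesentery (55.4 to 65.2), 63.7% in pharynx (61.2 to 66.1) and 62.3% in body wall (54.4 to 69.8). In the other clusters it took 52.8% (51.4 to 54.2), 51.8% (50.7 to 52.9), 53.6% (52.8 to 54.5) and 47.5% (46.6 to 48.5). Its partner is RS23_RAT (NVE882). The intervals of the summed sets did not overlap in any library, but single clusters were less clearly divided. In the tentacle the Ncol3-rich clusters ran from 61.1% to 63.5% and the others from 44.0% to 57.2%. In the pharynx the ranges overlapped, at 56.3% to 65.8% and 46.6% to 59.5%, and other clusters of the mesentery reached 61.9%. The libraries differed as well, with the body wall lowest among the other clusters. RS9_RAT, by contrast, took 35.1% in both cluster sets of the tentacle, and 54.0% and 54.1% in the Ncol3-rich and other clusters of the pharynx.

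Ncol3-rich barcodes were deeper than the others, with medians of 1508.5 against 596 UMIs in the tentacle and 820.5 against 557 in the pharynx. Within barcodes of at least 1000 UMIs, RL5_STYCL (NVE20682) took 35.3% in the Ncol3-rich and 54.5% in the other clusters of the tentacle, and 39.9% and 56.1% in the pharynx. Within 300 to under 1000 UMIs the values were 41.5% and 58.7% in the tentacle, and 51.3% and 63.0% in the pharynx. Grouping barcodes by Ncol3 itself gave 36.0% in tentacle barcodes with at least 10 Ncol3 UMIs and 55.9% in those with 0. The clusters were called rich by the same Ncol3 counts, so this grouping is not independent of them. It also divides the barcodes by depth, with medians of 2016.5 and 576 UMIs. For RS23_RAT (NVE8043) the grouping by Ncol3 UMIs gave 62.6% and 53.6%. The Ncol3-rich clusters held 45.8% of the tentacle's UMIs and 2.40% to 11.2% of the other tissues', beside a tissue share of RL5_STYCL of 46.0% in the tentacle and 57.2% to 58.6% in the others.

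Besides the RL5 model, the stalk base made up a larger part of the ribosomal protein UMIs in the Ncol3-rich clusters. RLA0_RANSY (NVE10151) made up 2.13% of the ribosomal protein UMIs there and 1.45% in the other clusters of the tentacle, 1.48-fold (1.42 to 1.54). In the pharynx it made up 2.49% and 1.37%, 1.81-fold (1.72 to 1.90). It made up 2.05% and 1.43% in the mesentery and 2.58% and 1.48% in the body wall. Its level among all UMIs was 6060 CPM in these and 4362 in the other clusters of the tentacle, and 6215 and 4477 in the pharynx. The ribosomal protein share was lower in these clusters, at 25.9% against 35.1% in mesentery and 18.8% against 34.4% in body wall. For these tissues the parts therefore do not give the level among all UMIs. As a part of the ribosomal protein UMIs, RL5_BOMMO (NVE4703) was 1.80-fold higher in the Ncol3-rich clusters in the tentacle (1.70 to 1.91). In the pharynx it was 1.72-fold higher (1.59 to 1.85). Of all UMIs it had 3312 CPM in these and 1952 in the other clusters of the tentacle, and 2618 and 1987 in the pharynx. RLA1_RAT (NVE25369) and RLA2_RAT (NVE2942) sit on RLA0 in the stalk. As parts of the ribosomal protein UMIs they were 1.19-fold and 1.09-fold higher there in tentacle barcodes, and 1.303-fold and 1.265-fold in pharynx barcodes. Of all pharynx UMIs, RLA1_RAT had 4179 CPM there against 4181 in other clusters, and RLA2_RAT 3981 against 4103. Other members had like ratios, such as RL12_RAT (NVE69), 1.19-fold and 1.31-fold, and RS14_LUPLU (NVE21507), 1.11-fold and 1.17-fold, in tentacle and pharynx. Both were singled out after their values were seen. Others, such as RS25_DROME (NVE7269) at 0.83-fold and 0.82-fold, were lower.

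**Figure D5:**
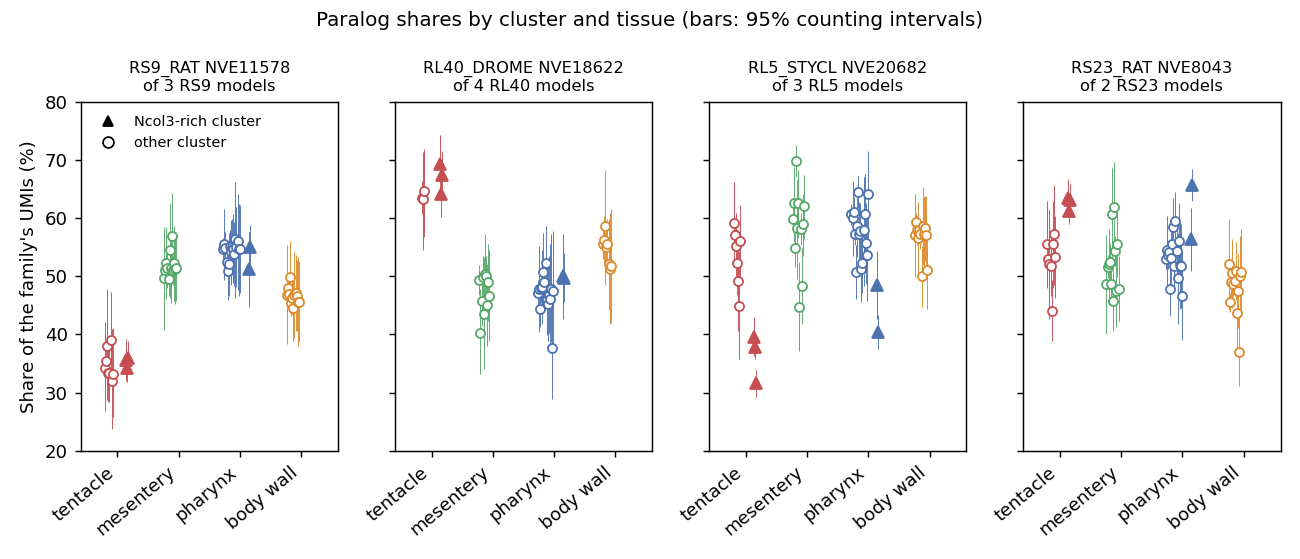
Share of a family's UMIs (y axis, %, from 20 to 80) taken by RS9_RAT (NVE11578), RL40_DROME (NVE18622), RL5_STYCL (NVE20682) and RS23_RAT (NVE8043) in each cluster of each tissue (x axis); triangles are Ncol3-rich clusters, open circles other clusters, and bars exact 95% counting intervals. In the RS9 and RL40 panels all tentacle clusters stand apart from those of the other 3 tissues, which overlap in part, while in the RL5 panel the Ncol3-rich clusters of the tentacle lie at 31.6% to 39.6%, below its other clusters at 44.9% to 59.2%.

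Other genes of translation were much scarcer than the ribosomal proteins, except for a few. The 9 models of elongation factors, which bring the aminoacyl-tRNA to the ribosome and move it along the mRNA, made up 1.79% of all UMIs in tentacle, 2.08% in mesentery, 1.98% in pharynx and 2.69% in body wall. Of them 2 (of 9) were at least 2-fold apart between tissues, where 44.1% of all genes with at least 50 UMIs were. EF1A3_XENLA (NVE12051), the elongation factor 1-alpha, was rank 3 of all genes, with 11323, 12494, 11918 and 16639 CPM. EF1GA_XENLA (NVE22411) and EF1D_XENLA (NVE25836), parts of the complex that reloads elongation factor 1-alpha, were also highest in the body wall, at 3320 and 2776 CPM. The 51 models of initiation factors took 0.408% to 0.468%, and 3 of the 32 with at least 50 UMIs were 2-fold apart, again beside 44.1% of all genes. IF5A_SPOFR (NVE19863) and IF4A2_RAT (NVE13578), an RNA helicase, led this list, at 1138 to 1412 and 850 to 948 CPM.

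TCTP_BRABE (NVE13346), whose mammalian mRNA is regulated together with those of ribosomal proteins, was rank 5 of all genes and lowest in the tentacle, with 5527 CPM against 7545 to 8638 elsewhere. PABP4_HUMAN (NVE12039), a poly(A)-binding protein, was highest in the tentacle, with 5571 CPM against 3947 to 4820 elsewhere. It is 1 of 2 models of its list, which took 0.399% to 0.563%. NACA_ORENI (NVE11279), named after a protein that meets the new chain at the tunnel exit, was lowest in the tentacle, at 1224 CPM, and highest in the body wall, at 2075 CPM. The list of TCTP_BRABE, NACA_ORENI and GBLP_RAT (NVE25966) took 0.958% of all UMIs in the tentacle and 1.26% to 1.37% elsewhere, and 0 of its 3 models were 2-fold apart (44.1% of all genes). The 29 models of ribosome assembly took 0.209% of the tentacle's UMIs and 0.310% to 0.361% elsewhere, mostly through NSA2_BOVIN (NVE9702) and RLP24_MOUSE (NVE3505), factors of the large subunit's assembly, which were both lowest in the tentacle. Of the 18 assembly models with at least 50 UMIs, 3 were 2-fold apart (44.1% of all genes). The proteins of the mitochondrial ribosome, a separate machine, took 0.0599% to 0.0742%, and 0 of their 36 models with at least 50 UMIs were 2-fold apart, beside the same 44.1%.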

How the data were processed

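The authors deposited UMI counts as whole numbers for each gene model and barcode. Per the submitters' processing notes they ran Cell Ranger 2.1.0. The sources used here name no genome build or alignment settings. Each library came with 7000 barcodes, of which those with at least 300 UMIs were kept. The other deposited files hold gene names and barcodes; no source used here says how names were given, and a name only points to a protein family. No member's position or sequence was analysed here.

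The members, lists and the split by Ncol3 were chosen with earlier results of these data known. For each gene the UMIs of a tissue were summed and expressed per 1000000 UMIs of that tissue (CPM). Shares have exact Clopper-Pearson intervals, CPM ratios exact binomial intervals (95%). With 1 library per tissue no test was run. Folds add 10 CPM. Named were the 10 members with the most UMIs, per tissue the 2 highest and 2 lowest against the mean of the others, members of families with several models, the stalk, RSSA, RS27A and RL40, and the most abundant genes of each translation list; other genes are said to be singled out after their values were seen. Clustering used scanpy 1.11.5 and leidenalg 0.10.2 (counts scaled to 10000 per barcode and log-transformed, 2000 variable genes without members, 30 components, 15 neighbours, resolution 1, seed 1). Genes detected in at least 20% of a cluster's barcodes were ranked by their CPM ratio to all other barcodes, and the first ones are called leading. The fold counting was tested on simulated data.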

Additional observations from a re-analysis of the deposited data

How the results depend on the processing

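With barcodes of at least 500 UMIs the shares were 29.0% (tentacle), 34.5% (mesentery), 31.7% (pharynx) and 34.4% (body wall), and with at least 1000 UMIs 28.6%, 34.5%, 31.6% and 34.8%. All deposited barcodes gave 30.1%, 35.0% and 32.2% in the first 3. Leaving out the 5% of barcodes with the most UMIs gave 30.5%, 34.4%, 32.8% and 34.2%, leaving the 100 most abundant other genes out of the whole 40.6%, 48.1%, 45.1% and 46.3%, and leaving out RL8_XENTR 28.8%, 33.9%, 31.1% and 33.2%. The mean of the shares per barcode was 30.8% in tentacle, 32.3% in pharynx and 32.9% in body wall. The tentacle was lowest under each of these settings.

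The median share per barcode became 32.4% (pharynx) and 34.7% (body wall) from 500 UMIs, 34.1% (mesentery), 34.2% (pharynx) and 35.4% (body wall) from 1000 UMIs, and 32.0% (tentacle), 33.2% (pharynx) and 35.3% (body wall) over all barcodes. Without the 100 other genes it was 41.7%, 50.8%, 45.4% and 44.9%, and without RL8_XENTR 31.2% (pharynx) and 32.3% (body wall). The rank correlation of the share with depth (Spearman) was 0.14 in pharynx and 0.16 in body wall from 500 UMIs, and 0.0014 (tentacle), 0.11 (mesentery), 0.0020 (pharynx) and 0.039 (body wall) from 1000 UMIs, with the sign turned in tentacle and mesentery.

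With 1 CPM added in place of 10, 9 members were 2-fold apart, 1 of them abundant. With members allowed among the variable genes the lowest and highest cluster shares were 17.2% and 44.7%. The causes of these moves were not tested. Of the values under alternatives, 160 stayed within the counting interval or limit of their own value, 56 moved beyond it and 2 changed sign. With the paralog shares of single families left out, 57 stayed, 47 moved and 2 changed sign. No paired analysis was possible because each tissue has 1 library and no replicate. Leaving out a replicate was not possible for the same reason. Depth limits the scarce members, whose counts per tissue are often under 50 UMIs.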
